A study of Gallus gallus with 4 samples.

Results

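TH, DBH, CHGA and SCG2 are 4 genes that mark catecholamine-producing cells of the sympathoadrenal lineage, the neural crest descendants that form sympathetic neurons and adrenal chromaffin cells. They were taken by gene symbol from a table of 13081 genes, and each symbol matched 1 gene. Whole chick (Gallus gallus) embryos were exposed at Hamburger-Hamilton stage 8 and collected on day 6, and their RNA was sequenced. The 4 groups, with 1 library each, were control (DMSO, the solvent), thalidomide at 40 µg/ml, spermine NONOate at 10 µM, and both agents at these doses, called the combination. Thalidomide, a teratogen, acts through the protein cereblon, and spermine NONOate is a chemical source of nitric oxide. The series title names the modulation by nitric oxide of the thalidomide-treated transcriptome as its question. The labels do not state how many embryos went into a library, nor their sex.

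Catecholamines are made from tyrosine. Tyrosine hydroxylase, encoded by TH, catalyses the rate-limiting step to L-DOPA, DOPA decarboxylase (DDC) makes dopamine, and dopamine beta-hydroxylase, encoded by DBH, makes noradrenaline inside storage vesicles. Chromogranin A (CHGA) and secretogranin II (SCG2) are acidic proteins of the dense-core vesicles that store catecholamines and peptides. TH is also used by dopaminergic neurons of the brain, and CHGA and SCG2 by many neurons and endocrine cells, so reads of a whole embryo come from every tissue that uses these genes. In such bulk libraries, fewer cells of a type and less RNA per cell cannot be told apart.

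The libraries held 79359076 (control), 66889240 (thalidomide), 62576258 (spermine NONOate) and 72309065 (combination) reads in genes. With 1 library per group no difference has a replicate check, and every interval given is a 95% counting interval, which holds no spread between embryos. Levels are normalised read counts (CPM, reads scaled to a common library size after TMM scaling). The words higher and lower are kept for ratios that pass a rule of size, which asks for a 2-fold ratio or more, a counting interval that leaves out equality, and 20 reads or more on the higher side. The members all had more than 20 reads in every library, so all 4 were tested in each of the 5 comparisons. Transcript lengths were not used here, so levels are compared between libraries and not between genes.

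TH had its highest levels in both libraries that had received thalidomide. It stood at 1.76 CPM in control (128 reads), 2.34 CPM with spermine NONOate (141 reads), 3.94 CPM in the combination (306 reads) and 4.29 CPM with thalidomide (303 reads). The intervals of control (1.46 to 2.09 CPM) and spermine NONOate (1.97 to 2.76 CPM) overlapped, as did those of the combination (3.51 to 4.41 CPM) and thalidomide (3.82 to 4.81 CPM), while neither of the lower libraries overlapped either of the higher ones. The log2 ratio of TH with spermine NONOate against control was 0.42 (0.06 to 0.77), short of the rule, though its interval excluded 0. TH was 2.44-fold higher with thalidomide than in control (log2 ratio 1.29, 0.99 to 1.60) and 2.24-fold higher in the combination than in control (1.16, 0.87 to 1.48). In the combination against spermine NONOate, a comparison that has no library in common with thalidomide against control, the log2 ratio was 0.75 (0.46 to 1.05), short of the rule.

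DBH, which acts downstream of TH in the same cells, had its highest level in another library. It stood at 3.06 CPM in control (223 reads), 4.99 CPM in the combination (387 reads), 5.17 CPM with thalidomide (365 reads) and 7.56 CPM with spermine NONOate (455 reads). Control was below all 3 treated libraries, the combination and thalidomide intervals overlapped (4.50 to 5.51 and 4.66 to 5.73 CPM), and spermine NONOate was above both. DBH was 2.47-fold higher with spermine NONOate than in control (log2 ratio 1.30, 1.07 to 1.54). Against the same control the log2 ratios with thalidomide (0.76, 0.51 to 1.01) and in the combination (0.70, 0.46 to 0.95) fell short of the 2-fold rule.

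SCG2, whose protein is the precursor of the neuropeptide secretoneurin, was higher in a single library. Its level was 27.3 CPM in control (1992 reads), 30.7 CPM with thalidomide (2168 reads), 32.5 CPM in the combination (2525 reads) and 66.9 CPM with spermine NONOate (4028 reads). The first 3 libraries lay within 26.1 to 33.8 CPM, counting intervals included, and the interval of the spermine NONOate library was 64.9 to 69.0 CPM. SCG2 was 2.45-fold higher with spermine NONOate than in control (log2 ratio 1.29, 1.22 to 1.37) and 2.06-fold lower in the combination than with spermine NONOate (-1.04, -1.11 to -0.97), a call that total count scaling ended (-0.88).

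CHGA, the other granin, varied least and passed the rule in no comparison. It stood at 47.3 CPM in control (3452 reads), 47.8 CPM with thalidomide (3374 reads), 60.0 CPM in the combination (4652 reads) and 65.6 CPM with spermine NONOate (3945 reads). The intervals of control and thalidomide overlapped, and the 2 libraries with the nitric oxide donor lay above them, with separate intervals of 58.2 to 61.7 and 63.5 to 67.6 CPM. The log2 ratio was 0.47 (0.40 to 0.54) for spermine NONOate against control and 0.33 (0.26 to 0.39) for the combination against thalidomide, which share no library.

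**Figure D1:**
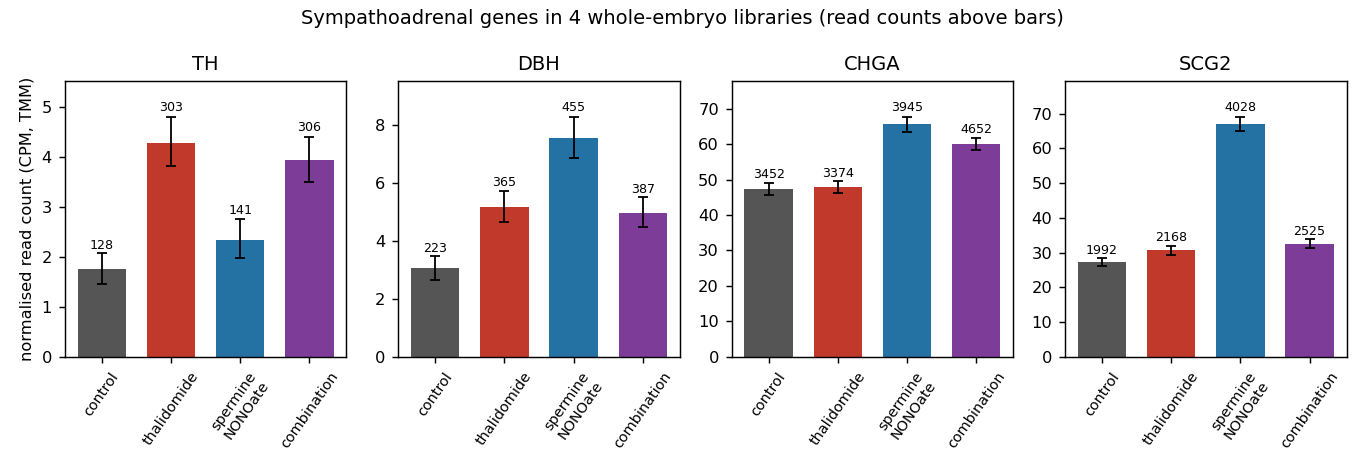
Bars give the normalised read count (CPM after TMM scaling) of TH, DBH, CHGA and SCG2 in each of the 4 libraries, error bars the 95% counting interval, and the number above each bar the reads. TH is highest in the 2 libraries with thalidomide (4.29 and 3.94 CPM), while DBH (7.56 CPM) and SCG2 (66.9 CPM) are highest with spermine NONOate alone.

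The members were chosen with earlier results of these data known, so the all-gene shares below give scale and are no test. With spermine NONOate against control 2 of the 4 members (DBH and SCG2) were higher, where 4.33% of 12066 genes tested were higher and 1.33% lower. With thalidomide against control 1 of 4 (TH) was higher, where 9.22% of 12138 genes were higher and 7.23% lower. In the combination against control it was again 1 of 4 (TH), where 14.2% of 12176 genes were called, 10.1% higher and 4.16% lower. In the combination against spermine NONOate 1 of 4 (SCG2) was lower, where 6.03% of 12161 genes were lower and 9.84% higher. No member was called in the combination against thalidomide, where 4.99% of 12154 genes were called, 3.74% higher and 1.26% lower. In the spermine NONOate comparison DBH and SCG2 lay above the 95th percentile of all log2 ratios (0.91). TH with thalidomide lay just under it (1.32).

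**Figure D2:**
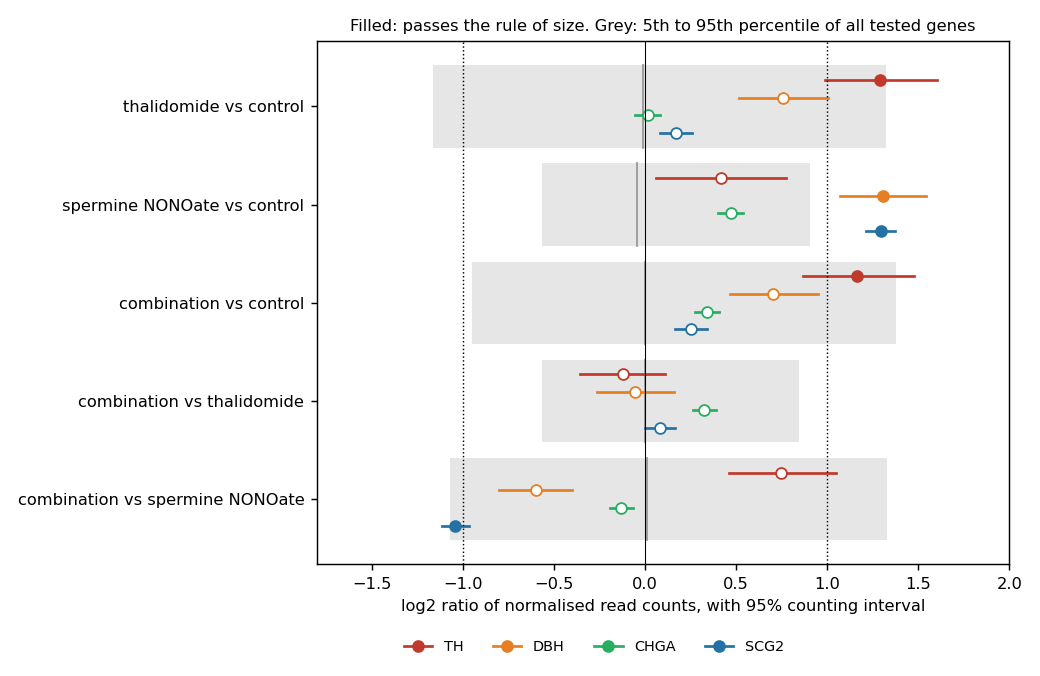
Points give the log2 ratio of each member in the 5 comparisons with 95% counting intervals, filled where the rule of size is passed. Grey bands span the 5th to 95th percentile of all tested genes, the grey line is their median, and dotted lines mark 2-fold. DBH (1.30) and SCG2 (1.29) lie outside the band for spermine NONOate against control, and in the combination against thalidomide all 4 members lie within it.

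The authors' deposited table gives unadjusted p-values for the same comparisons. With 1 library per group they rest on no replicates and are not a test over embryos. For spermine NONOate against control the authors' deposited table gives p = 4.43e-05 for SCG2, p = 0.033 for DBH, p = 0.0977 for CHGA and p = 0.507 for TH, where 4.53% of its genes had a p under 0.05. In the authors' deposited table TH has p = 0.176 with thalidomide and p = 0.216 in the combination against control, and SCG2 has p = 0.0939 in the combination against spermine NONOate. No other comparison of a member in the authors' deposited table had a p under 0.05.

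The 4 libraries also form a 2 by 2 layout, fitted with both agents additive on the log2 scale by edgeR's quasi-likelihood test with Benjamini-Hochberg adjustment over 12090 genes. This fit has 1 residual degree of freedom, counts any interaction as spread and is not a test over biological replicates. TH had a thalidomide effect of 1.02 ± 0.38 (SE, adjusted p = 0.0285), in a fit that called 32.5% of genes for thalidomide, 17.6% higher and 14.9% lower. DESeq2 with the same design gave TH an adjusted p of 0.0815. For thalidomide the other members had effects of -0.44 (SCG2), 0.07 (DBH) and -0.06 (CHGA), with adjusted p-values of 0.133, 0.899 and 0.864 by edgeR's test. For spermine NONOate no member passed, where 2.22% of genes did (2.03% higher and 0.199% lower). SCG2 came closest, with an effect of 0.69 ± 0.23 (SE) and an edgeR adjusted p of 0.109. Under the other settings its adjusted p was 0.306 to 0.405 by edgeR and 0.597 by DESeq2. An unadjusted p under 0.05 was found for 1 of 4 members by edgeR and by DESeq2, and for 2 of 4 by edgeR with total counts. DESeq2 also left 0 members past the adjusted threshold. DBH had an effect of 0.62 ± 0.36 with an edgeR adjusted p of 0.926.

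The number of reads of 1 gene per read of another in the same library does not depend on how libraries are scaled. Because gene length enters each such ratio, only its change between libraries is read. The control library had 1.74 DBH reads per TH read (1.40 to 2.18), the thalidomide library 1.20 (1.03 to 1.41), the combination 1.26 (1.09 to 1.47) and the spermine NONOate library 3.23 (2.67 to 3.93). The spermine NONOate interval overlapped none of the others. The 2 catecholamine enzymes thus did not keep 1 ratio across the libraries. SCG2 reads per CHGA read were 0.577 in control, 0.643 with thalidomide and 0.543 in the combination, and 1.02 (0.977 to 1.07) with spermine NONOate. DBH reads per CHGA read were 0.0646 in control and 0.0832 in the combination. They were 0.108 (0.0968 to 0.121) with thalidomide and 0.115 (0.104 to 0.127) with spermine NONOate, with overlapping intervals. SCG2 reads per DBH read were 8.93 in control and 8.85 with spermine NONOate, against 5.94 with thalidomide and 6.52 in the combination. TH reads per CHGA read were 0.0371 in control and 0.0357 with spermine NONOate, against 0.0898 with thalidomide and 0.0658 in the combination. These TH ratios are split by thalidomide, with no overlap of intervals between the libraries with and without it.

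**Figure D3:**
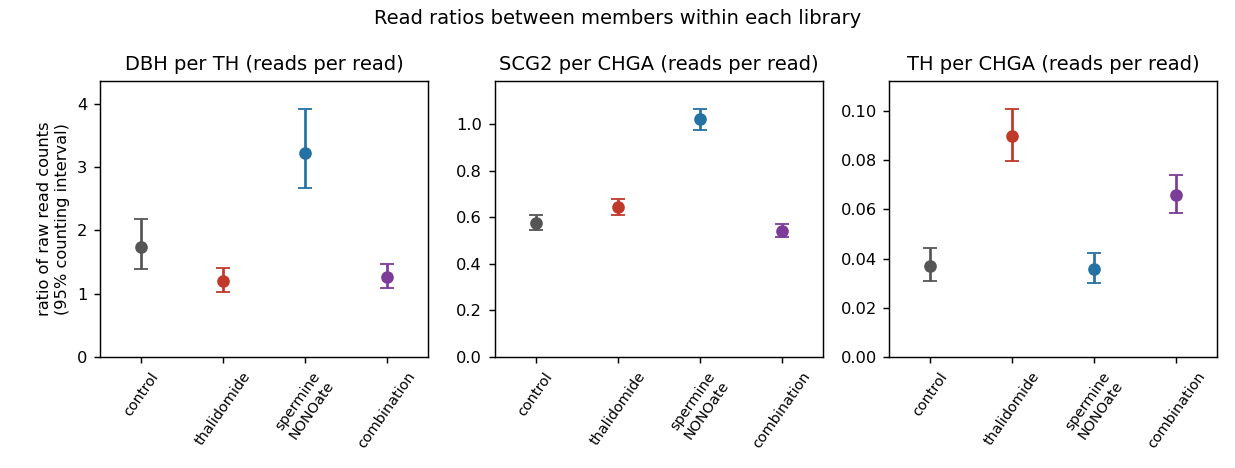
Points give the ratio of raw reads between 2 members within each library, with 95% counting intervals, on axes that start at 0. DBH per TH (3.23) and SCG2 per CHGA (1.02) are highest with spermine NONOate alone, and TH per CHGA is higher in the 2 libraries with thalidomide (0.0898 and 0.0658).

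For DBH and SCG2 the ratio between libraries with and without spermine NONOate was over 2-fold in the absence of thalidomide and near equality in its presence. For DBH the log2 ratio of libraries with and without the donor was 1.30 in the absence of thalidomide and -0.05 (-0.26 to 0.16) in its presence, so the latter minus the former was -1.36 (-1.67 to -1.05, counting error only). For SCG2 the ratios were 1.29 and 0.08 (-0.00067 to 0.17), and the difference was -1.21 (-1.32 to -1.10). Differences of at least 2-fold with an interval excluding 0 were found for 8.68% of 12273 genes, 4.52% downwards and 4.16% upwards. TH (-0.54, -0.95 to -0.13) and CHGA (-0.14, -0.24 to -0.05) had smaller differences in the same direction. The 5th percentile of this difference over all genes was -0.99 and its median 0.04. Scaling by another method left the differences of DBH between -1.41 and -1.35 and those of SCG2 between -1.26 and -1.21.

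Other genes of the same cells were taken from 5 lists by role, which held 61 names, of which 40 were matched in the table. The lists too were chosen with earlier results of these data known, so their shares are no test either. With spermine NONOate against control 5 of the 40 were higher and none lower, which is 12.5% called against 5.67% of all genes tested. Their median log2 ratio was 0.17, where that of all genes was -0.05. DDC, GFRA3, CHRNA3 and CHRNB4 were among the 5 higher genes. The spermine NONOate ratio with thalidomide minus that without had no shared direction over the 40 genes, with a median of -0.05. A difference of at least 2-fold with an interval excluding 0 was upwards for 3 (MAOA, MAOB and GATA3) and downwards for 4. That is 17.5%, where 8.68% of all genes had such a difference.

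Of the 8 genes of catecholamine synthesis, storage and clearance that were matched, DDC was the only one higher with spermine NONOate. DDC had 222 reads in control, 618 with thalidomide, 553 with spermine NONOate and 602 in the combination, so that it was higher in all 3 treated libraries (2.87-fold, 3.01-fold and 2.54-fold, log2 intervals 1.30 to 1.75, 1.37 to 1.82 and 1.12 to 1.58). DDC is also used in kidney and liver. SLC18A2, the vesicular monoamine transporter, was 2.19-fold lower with thalidomide than in control (log2 ratio -1.13, -1.33 to -0.93), a call that total count scaling ended (-0.93). Its log2 ratio in the combination against spermine NONOate was -0.84. MAOB, a monoamine oxidase, was higher in the combination than in each of the other libraries, by 2.37-fold over control and 2.18-fold over thalidomide. MAOA was higher in the combination (29.0 CPM) than with thalidomide (12.7 CPM, log2 ratio 1.19), the library with its lowest level. It stood at 24.2 CPM in control and 25.5 CPM with spermine NONOate, and the combination was not called against either. The list had a median log2 ratio of 0.05 with spermine NONOate and -0.27 with thalidomide, where all genes had -0.05 and -0.01.

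Among the transcription factors of the lineage 6 of 12 were matched. As with the members, their reads come from every tissue of the embryo that uses them. HAND2, a factor of sympathetic differentiation, was present at 54.2 to 72.4 CPM and was called in no comparison. GATA3 was 2.04-fold lower with thalidomide than in control (-1.03, -1.16 to -0.90), short of the rule by total counts and without the 50 most abundant genes, and SOX11, a factor of immature neurons, was higher in the combination than with spermine NONOate (1.23). The list's median was -0.35 with spermine NONOate and 0.05 with thalidomide.

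Receptor genes held 3 of the 5 calls with spermine NONOate. CHRNA3 and CHRNB4 encode subunits of the nicotinic acetylcholine receptor of autonomic ganglia. CHRNA3 had 229 reads in control, 330 with thalidomide, 525 with spermine NONOate and 274 in the combination, and CHRNB4 had 241, 199, 435 and 275 in the same order. Like SCG2, both were higher with spermine NONOate than in control (log2 ratios 1.47 and 1.13) and lower in the combination than with spermine NONOate (-1.30 and -1.03), the CHRNB4 call in the latter being lost by total counts (-0.87). GFRA3, the co-receptor for artemin on sympathetic precursors, was higher in every treated library than in control, by 3.74-fold with thalidomide, 4.58-fold with spermine NONOate and 9.75-fold in the combination (log2 ratio 3.28, 3.02 to 3.57). It was also the only one of the 40 genes with an adjusted p under 0.05 for spermine NONOate in the additive edgeR fit (effect 1.78 ± 0.34), where 2.22% of all genes passed. CHRNA5, a further nicotinic subunit, was higher with thalidomide (1.20). Of the 11 receptor and ligand genes matched, 3 were higher with spermine NONOate (median 0.36) and 2 with thalidomide (median 0.57), with none lower in either. Of all genes tested, 4.33% and 9.22% were higher and 1.33% and 7.23% lower. With total counts 4 were higher with thalidomide, where 1674 of 12138 genes were higher in place of 1119.

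No other granin or dense-core vesicle gene passed the rule with spermine NONOate against control, as SCG2 did. CHGB, chromogranin B, had log2 ratios of 0.67 with spermine NONOate and 0.01 with thalidomide against control. The 8 matched genes had log2 ratios from -0.01 to 0.67 in that comparison, with a median of 0.49. With thalidomide the median was -0.06, and PTPRN2, a membrane protein of these vesicles, was the only gene called (1.33, 1.23 to 1.44 in log2). SCG5, a chaperone of prohormone convertase PCSK2, was lower in the combination than with spermine NONOate (-1.13), a call that total counts ended. In that comparison PTPRN2 was higher (1.30, 1.19 to 1.41), where 9.84% of all genes were higher and 6.03% lower. PTPRN2 was also higher in the combination than in control (1.29).

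Most peptide genes were lower with thalidomide, where TH was higher. NPY, the cotransmitter of sympathetic neurons, had 1108 reads in control, 351 with thalidomide, 802 with spermine NONOate and 449 in the combination. It was 3.05-fold lower with thalidomide than in control (log2 ratio -1.61, -1.79 to -1.44) and 2.30-fold lower in the combination than with spermine NONOate (-1.20, -1.37 to -1.04). SST (somatostatin), PENK (the enkephalin precursor) and VIP were lower with thalidomide as well, at -1.66, -1.33 and -1.26. That makes 4 of 7 lower and none higher, where 7.23% of all genes were lower and 9.22% higher. The median was -1.26 against -0.01 for all genes, and it stayed between -1.29 and -1.06 over the 5 scalings, each of which called 4 lower. In the combination against spermine NONOate 3 of 7 were lower, where 6.03% of all genes were: NPY, GAL (galanin, -2.18) and TAC1 (the substance P precursor, -1.34). With spermine NONOate against control none of the 7 was called (median -0.06). These peptides are also made by brain, gut and other endocrine cells. In the additive edgeR fit 6 of the 7 peptide genes had a thalidomide effect below 0 with an adjusted p under 0.05, where 14.9% of all genes did. Over the 40 genes, thalidomide against control had 4 higher and 6 lower (25% called, against 16.5% of all genes), and the combination against spermine NONOate had the same counts (25%, against 15.9%). The balance turned with total counts, to 6 higher and 4 lower for the former and 5 higher and 4 lower for the latter, and without the 50 most abundant genes the former had 5 in each direction.

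**Figure D4:**
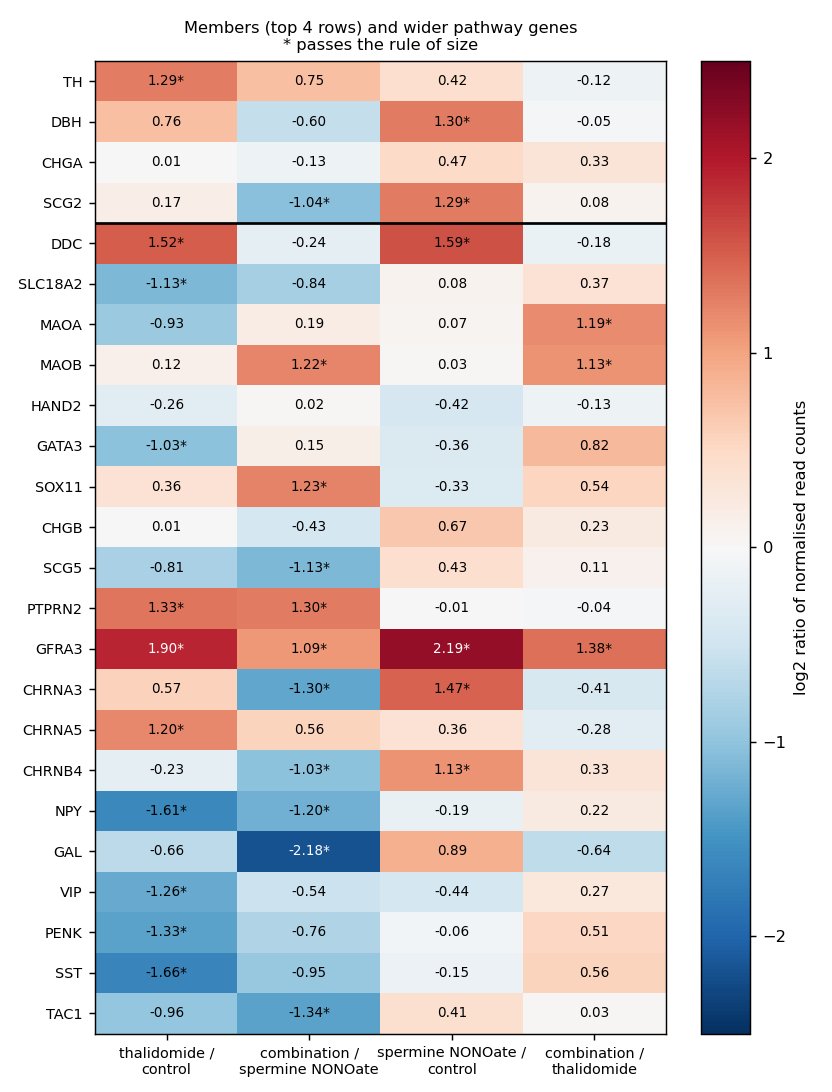
Cells give the log2 ratio of the 4 members and of 20 further genes of the lineage in 4 comparisons, red for higher and blue for lower in the first-named library, with a star where the rule of size is passed. The first 2 columns differ by thalidomide and the last 2 by spermine NONOate. NPY is lower in both thalidomide columns (-1.61 and -1.20), and GFRA3 is higher in all 4.

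**Figure D5:**
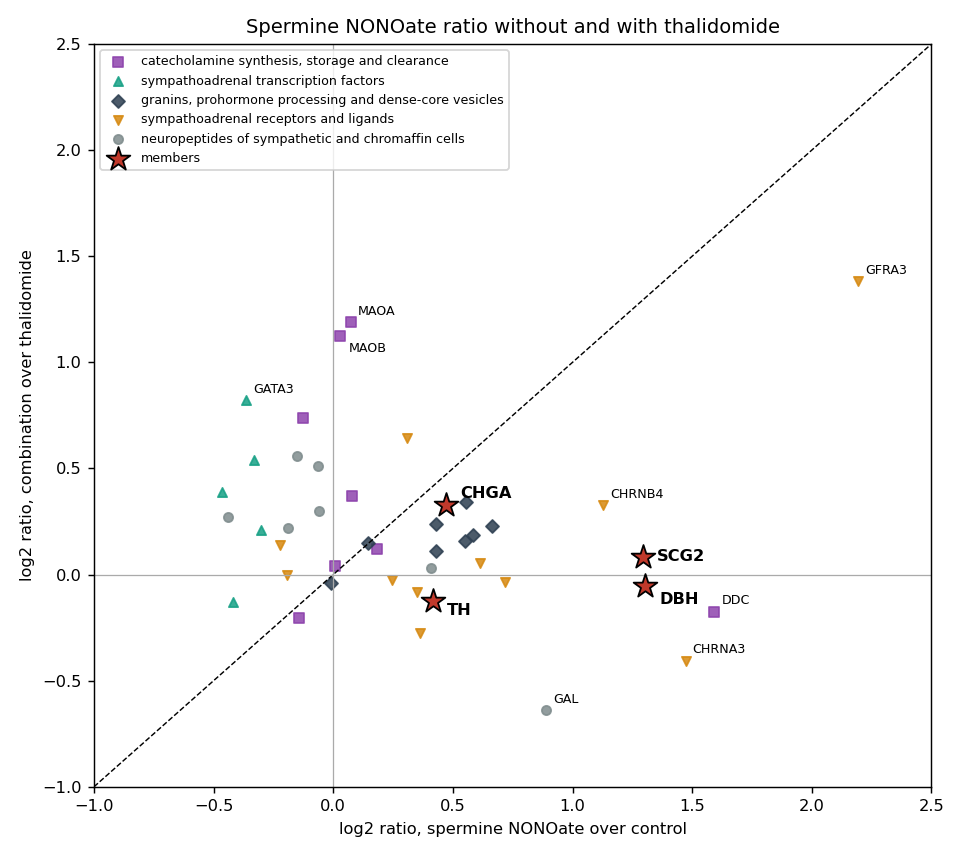
Points give the log2 ratio for spermine NONOate without thalidomide (x axis) and with it (y axis) for the members (stars) and further genes of the lineage, with symbols by list. The dashed line marks equal ratios. DBH, SCG2, DDC, CHRNA3 and CHRNB4 lie at 1.13 or more on the x axis and under 0.34 on the y axis. GFRA3 lies at 2.19 on the x axis and 1.38 on the y axis. MAOA (0.07 and 1.19) and MAOB (0.03 and 1.13) lie above the dashed line.

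Genes of other tissues moved in the same libraries. With spermine NONOate against control 10 of 11 liver genes were higher (median 2.36, albumin gene ALB at 3.26) and 6 of 8 kidney genes (median 1.53, LRP2 at 1.33), where 4.33% of all genes were. The 9 matched pan-neuronal genes had a median of 0.51 with none called, close to the values of CHGA (0.47) and of the granin list (0.49). SLC18A3, the vesicular acetylcholine transporter of cholinergic neurons, was higher (1.18), as were the pancreatic and gut hormone gene GCG (1.41), the pituitary hormone precursor POMC (1.69) and NR4A2, a factor of midbrain dopaminergic neurons (1.62). NR4A2 had 113 reads in control, 275 with thalidomide, 288 with spermine NONOate and 381 in the combination, and was higher than in control in all 3 treated libraries, including both in which TH was higher (1.33 with thalidomide and 1.66 in the combination). It was the only call among the 5 matched midbrain dopaminergic genes in these comparisons with control. Their median log2 ratio was -0.10 with thalidomide, -0.41 with spermine NONOate and -0.05 in the combination. Of the 5, 2, 1 and 2 had ratios above 0 in the same order. In the spermine NONOate comparison 1 of 5 midbrain, 1 of 5 adrenal cortex (NR5A1, at 1.18), 1 of 4 cholinergic, 1 of 3 pancreatic, 1 of 4 pituitary and 0 of 4 glia and neural crest genes tested were higher, with none lower. The summed level of the 5 matched midbrain dopaminergic genes was 62.5 CPM in control, 56.8 with thalidomide, 47.8 with spermine NONOate and 59.7 in the combination. That of the 4 matched glia and neural crest genes was 1151 CPM in control, 744 with thalidomide, 1222 with spermine NONOate and 777 in the combination, most of it FABP7. SOX10, the crest and glial factor of that list, was called in no comparison. S100B of the same list was lower in the combination than in control (log2 ratio -1.12) and than with spermine NONOate (-1.44). It had few reads (70 in control, 72 with spermine NONOate and 34 in the combination), and total counts ended the former call (-0.90). The part of these tissues in the differences of the members was not tested.

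With thalidomide, some genes of the adrenal cortex, the steroid-making neighbour of chromaffin cells, were lower. CYP11A1, the side-chain cleavage enzyme that starts steroid synthesis, had 356 reads in control, 49 with thalidomide, 191 with spermine NONOate and 119 in the combination. It was 6.97-fold lower with thalidomide than in control (log2 ratio -2.80, -3.28 to -2.38), and CYP17A1 was 3.74-fold lower. Of 5 cortex genes tested 3 were lower with thalidomide, where 7.23% of all genes were, the third being HSD3B1, whose call total counts ended. NR5A1, the factor that specifies the cortex, and FDX1 were not called, with log2 ratios of 0.58 and -0.02. MC2R, the corticotropin receptor, had 0 reads in control and in the combination, 6 with thalidomide and 4 with spermine NONOate, too few to compare. These enzymes are also used by the gonads. Kidney genes were higher (6 of 8, median 1.76, where 9.22% of all genes were higher) and pan-neuronal genes were mixed (median -0.40, 1 of 9 called: DCX, a protein of migrating neurons, higher at 1.60). Of the 11 liver genes 4 were lower with thalidomide than in control and 0 higher (median -0.30). In the combination against spermine NONOate 6 of the 11 were lower and 0 higher (median -1.09). With total counts the former became 3 lower and 1 higher, and the latter 5 lower. Cytosolic ribosomal protein genes, which encode short mRNAs, had a median of -1.01 with thalidomide against control, -1.03 in the combination against spermine NONOate and -0.10 with spermine NONOate alone, and 26 of 51 were lower in each of the first 2, where 7.23% and 6.03% of all genes were. Their part in the TH and peptide differences was not tested.

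The genes with the pattern most like each member were sought by the root mean square difference of log2 profiles over the 4 libraries, each centred on its mean. Nearest to TH were SLC17A6, a vesicular glutamate transporter (0.07), TTLL1 (0.07) and LAMC3 (0.07). Nearest to DBH were WDR65 (0.05), CFI, complement factor I (0.07), and C2ORF82 (0.08). SCG2 was nearest to SLC18A3 (0.05), HMX3 (0.05) and GCG (0.08), all 3 with their most reads with spermine NONOate. CHGA was nearest to RAB6B, a neuronal GTPase (0.01), CADPS, a priming factor of dense-core vesicles (0.03), and TMOD2, a neuronal tropomodulin (0.03). Among the members themselves DBH and SCG2 were closest (0.26) and TH and SCG2 farthest apart (0.79). With 4 libraries and 10164 genes compared, these are descriptions with no test.

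TH (ENSGALG00000006551) and CHGA (ENSGALG00000010820) are on the plus strand of chromosome 5, DBH (ENSGALG00000002926) on the plus strand of chromosome 17 and SCG2 (ENSGALG00000005176) on the minus strand of chromosome 9, per the deposited table. By gene order on the RefSeq assembly GRCg7b, none of the 4 overlaps another protein-coding gene. The neighbour of TH on 1 side, INS, had 13 to 30 reads per library. AP1S3 beside SCG2 stood at 20.6 CPM in control, 9.86 with thalidomide, 23.8 with spermine NONOate and 8.31 in the combination. Its highest level was with spermine NONOate, but unlike SCG2 its main difference was between libraries without and with thalidomide. SARDH beside DBH stood at 93.2 CPM in control, 49.8 with thalidomide, 84.4 with spermine NONOate and 74.2 in the combination, with its highest level in control.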

How the data were processed

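RNA was sequenced from 4 libraries, 1 per condition. TopHat2 (2.0.8), DESeq and build galGal4 come from the submitters' processing notes. Genes carry Ensembl release 75 identifiers, per the file headers. How reads were assigned to genes and strands is not given in the sources used here. The authors deposited raw read counts per gene, with their fold (ratio), log2 fold and unadjusted p-value for each comparison. These are quoted as the authors' values. The table covers chromosomes 1 to 21.

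Libraries were scaled with TMM (edgeR 4.0.16, R 4.3.3), and 0.5 reads were added to each count for log2 ratios. Intervals are 95% Clopper-Pearson intervals of the conditional binomial, or exact Poisson intervals for levels. They hold counting error alone, and without molecular identifiers a read is not an independent molecule. Differences of 2 log2 ratios have normal intervals from the counts. The additive fit took genes with at least 20 reads in at least 2 libraries. Its SE is the log2 effect divided by the root of F. DESeq2 1.42.0 was the alternative test, and total counts, DESeq2 size factors, upper quartile and TMM without the 50 most abundant genes were alternative scalings. Other fold thresholds, read minimums and added reads were also tried. The additive fit was also run on simulated counts that held no interaction between the agents, and the outcome is not reported here.

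The members and the 14 gene lists were chosen with earlier results of these data known. Of the 142 names 96 were matched by symbol, 1 of them by an older symbol in the RefSeq table. Genes named come from the members, list genes called in at least 1 comparison (up to 6 a list by reads, or 3 for cell types), DDC, HAND2, GATA3 and CHGB in any case (also PNMT, which was not matched), and the 3 genes most like each member (symbol, at least 100 reads in all). 1 gene that this rule names is not reported here. SOX10, FABP7, FDX1, HSD3B1, MC2R and the neighbours were named after their values were seen.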

Additional observations from a re-analysis of the deposited data

Results flagged for a closer look

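The thalidomide ratio of DBH had opposite directions without and with spermine NONOate: 0.76 in log2 for thalidomide against control and -0.60 for the combination against spermine NONOate, a difference of -1.36. For SCG2 the ratios were 0.17 and -1.04, with a difference of -1.21. The SCG2 ratio of 0.17 was small, within the 25th to 75th percentile of all genes (-0.45 to 0.47). Both counting intervals excluded 0 on each side. Both differences are the ones given above for the spermine NONOate ratios, taken from the same 4 libraries, and are no further result. With 1 library per condition the difference was not tested against the spread between embryos.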

How the results depend on the processing

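No paired analysis was possible because each condition has 1 library. Leaving out a library leaves no residual degree of freedom in the additive fit, so it was not run. Of 53 alternative values for the counts of members called, 44 kept the count within 1.5 times. With a 4-fold threshold the count was 0 in each of the 5 comparisons. With a 1.5-fold threshold it was 2 for thalidomide against control and for the combination against control, where DBH joined TH, and 3 for the combination against spermine NONOate (TH higher, DBH and SCG2 lower). The share of all genes at 1.5-fold is not given here, so these counts do not set the members apart from other genes. For scale, 25 of the 40 genes of the lists by role passed it for thalidomide against control, in place of 10. Scaling to total counts left 0 members called in the combination against spermine NONOate, with SCG2 at -0.88. DESeq2 in place of edgeR left 0 members called for thalidomide in the additive fit. The small ratios of CHGA changed sign with upper quartile scaling in thalidomide against control (-0.02) and with total counts in the combination against spermine NONOate (0.03). With total counts the all-gene median went from -0.01 to 0.19 for thalidomide against control, from -0.00 to 0.22 for the combination against control and from 0.01 to 0.17 for the combination against spermine NONOate. In the same 3 comparisons higher genes made up 74.9%, 87.7% and 77.7% of calls in place of 56.0%, 70.8% and 62.0%. In the additive edgeR fit total counts gave 2711 genes higher and 869 lower for thalidomide, against 2125 and 1805, and 179 genes for spermine NONOate against 269. TH and DBH rest on 128 to 455 reads a library, so their intervals are wider than those of the granins. The differences between the spermine NONOate ratios and the counts over gene lists under other scalings were added after seeing the data. With total counts the lists of the lineage held 10 genes higher and 2 lower in the combination against control, in place of 4 and 3. Over all 12176 genes tested there were 1826 higher and 255 lower, in place of 1227 and 506. By TMM 17.5% of the 40 list genes were called in that comparison, against 14.2% of all genes.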
